A study of Mus musculus with 2 samples.

Results

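Genes of retinoic acid handling, 6 in all, were compared between embryoid bodies that differ in Elongin A: Aldh1a1, Cyp26a1, Cyp26b1, Crabp2, Rarb and Stra8. They were chosen by name, as the genes whose symbol is the only one given for a probe, and all 6 of 6 were found, each with 1 probe, among 13697 genes named on the array. Embryoid bodies are aggregates in which mouse embryonic stem (ES) cells differentiate. The bodies came from ES cells that were Elongin A+/+, which carry the gene, or Elongin A-/-, which lack it on both alleles, and were profiled on 1 array per genotype. All bodies, in both groups, were grown in DMEM/F12 with serum and N2 supplement and received 2 µM retinoic acid for 4 days. No untreated bodies were compared, so the values show levels under retinoic acid and not the induction by it. The sources used here do not say how many ES clones or cultures stand behind each array.

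Retinoic acid is made from vitamin A in steps: retinol is taken up and bound inside the cell, oxidised to retinaldehyde, and oxidised again by the ALDH1A enzymes. The acid enters the nucleus with the help of CRABP carriers and binds retinoic acid receptors (RARs), which sit with retinoid X receptors (RXRs) on direct repeats of a short DNA hexamer and switch on their targets. CYP26 enzymes, themselves among those targets, degrade the acid, so the pathway limits its own signal. In embryoid bodies retinoic acid drives neural differentiation and sets position along the body axis.

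Values are normalised intensities in arbitrary units, and each difference is the log2 value of the Elongin A-/- array minus that of the Elongin A+/+ array. With 1 array per genotype there is no replicate check, so no difference was tested. Effects of genotype, line, culture and hybridisation cannot be told apart. The number of arrays limits the precision. A rough yardstick was how far the differences of several probes to one gene disagreed, an SD of 0.43 on the log2 scale over 224 genes. These probes share the 2 arrays, so the SD leaves out errors of culture, labelling and hybridisation common to them. It also pools dim and bright probes. A gene was called measured when it lay above a floor, the array median of 1.03, on 1 or both arrays, as 9568 genes did. A value under the floor was set to it, so that such a difference is a bound. The probe of Elongin A (Eloa) gave 3.87 on the Elongin A+/+ array and 3.57 on the Elongin A-/- array. The sources used here do not place that probe relative to the deleted part, so it checks nothing and every direction rests on the labels. In bulk RNA, fewer cells of a type and less RNA per cell cannot be told apart.

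On the Elongin A-/- array, 5 of the 6 genes were lower and 1, Crabp2, was higher. At a fixed size of 2-fold, 3 were lower (Stra8, Aldh1a1 and Cyp26b1), against 5.97% of all measured genes. Crabp2 was the 1 gene at least 2-fold higher, against 6.76% of all measured genes. The median difference of the 6 was -1.05, and that of all measured genes was -0.02. Since the genes were picked with earlier results of these data known, these counts describe them and nothing more. At 3-fold, Stra8 and Aldh1a1 were lower, 2 of the 6 against 1.86% of all measured genes, and 0 were higher against 2.23%. At 1.5-fold, 4 were lower against 14.8% and 1 was higher against 15.8%. All 6 lay above the floor on both arrays, so none of their differences is a bound. With the values as deposited, before normalisation, the differences ran from -2.28 for Stra8 to 1.17 for Crabp2.

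**Figure D1:**
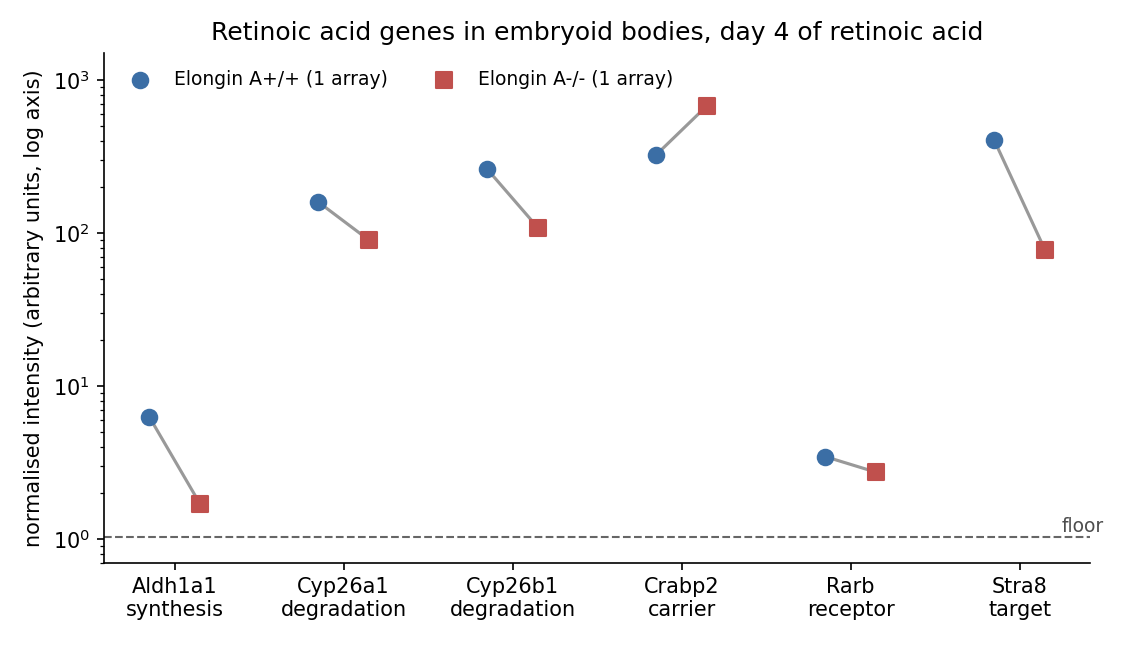
Normalised intensity (log axis, arbitrary units) of the 6 genes on the Elongin A+/+ array (blue circles) and the Elongin A-/- array (red squares), 1 array each, with no error bars since there are no replicates; the dashed line is the floor of 1.03. Lines slope down for every gene except Crabp2, steepest for Stra8 (403 to 77.5), while Rarb (3.45 and 2.73) is nearly level and, like Aldh1a1, lies close to the floor.

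Scatter between the arrays depends on brightness, so each gene was set beside other measured genes whose mean log2 level lay within 1 of its own. Among the 580 genes as bright as Stra8, 5 (0.862%) were at least 2-fold lower, and 0 were as far down as Stra8. Of 617 genes as bright as Cyp26b1, 2 were at least as far down. For Crabp2 the comparison held 178 genes, of which 0 were as far up. Cyp26a1, though within 2-fold, was also toward the edge of its neighbours in brightness, with 16 of 874 genes (1.83%) at least as far down. Aldh1a1 lies where the scatter is wide: 11.1% of 2587 genes of its brightness were at least 2-fold lower, and 74 of them (2.86%) were at least as far down. Rarb was ordinary for its brightness, with 34.4% of 2617 genes at least as far down.

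**Figure D2:**
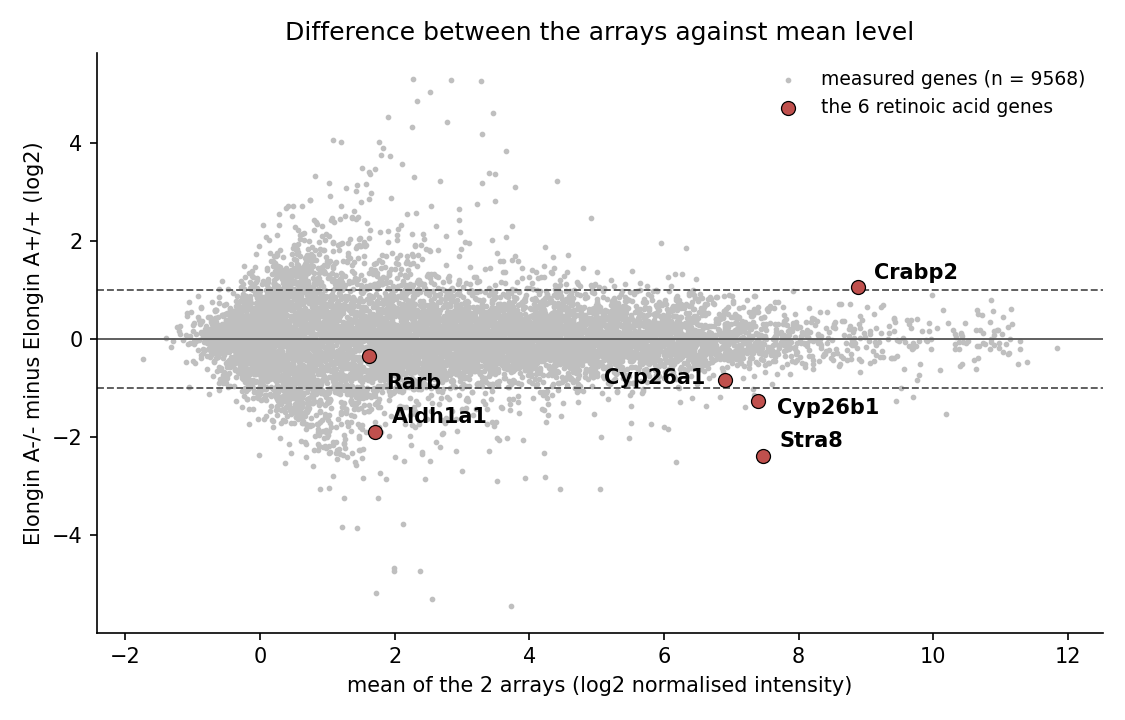
Difference between the arrays (log2, Elongin A-/- minus Elongin A+/+, values under the floor set to it) against the mean log2 intensity of both arrays for the 9568 measured genes (grey) and the 6 retinoic acid genes (red, named); dashed lines mark 2-fold. Stra8 (-2.38), Cyp26b1 (-1.27) and Crabp2 (1.06) stand outside the narrow cloud of bright genes, while Rarb (-0.34) lies inside the wide cloud of dim genes.

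Aldh1a1, a retinaldehyde dehydrogenase that makes retinoic acid, had an intensity of 6.30 on the Elongin A+/+ array and 1.70 on the Elongin A-/- array. That is a log2 difference of -1.89, or 3.70-fold lower. The Elongin A-/- value is only 1.66 times the floor, and with a floor at the 75th percentile of the array the difference was a bound of -0.27, so the call holds only where signals this dim are trusted. Aldh1a7, a closely related gene beside it on chromosome 19, had 6.45 and 4.74, a difference of -0.44 on the same side. Their sequences are similar enough that a probe may pick up both, which was not tested. The other enzymes of this step gave little signal. Aldh1a2, the main retinoic acid synthase of the early embryo, had 1.04, just above the floor, and 0.95, below it, and Aldh1a3 had 0.29, below it, and 1.33. Of 5 measured genes of retinoic acid synthesis, 1 (Aldh1a1) was at least 2-fold lower, and 3 others, Aldh1a3 among them, were bounds short of 2-fold.

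Upstream of that step, most genes were within 2-fold. Among 17 measured genes that interconvert retinol and retinaldehyde, 1 was at least 2-fold lower and 1 higher, and the median was 0.08. Adh1, an alcohol dehydrogenase that oxidises retinol, was the lower one, with 12.7 and 3.31. Akr1b8, an aldo-keto reductase, was the higher one, with 2.28 and 5.46. Dhrs3, which reduces retinaldehyde back to retinol, had 80.3 and 99.6 (0.31). Of 6 measured genes of retinol uptake and storage, Stra6l, a receptor for the retinol-binding protein, was at least 4.98-fold lower, from 5.12 to below the floor. Ttr, the serum partner of that protein, was at least 3.34-fold higher, from below the floor to 3.42, and it is also a gene of visceral endoderm. Stra6, the better known uptake receptor and itself switched on by retinoic acid, had 76.1 and 65.1 (-0.23).

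Both measured CYP26 enzymes, which degrade retinoic acid, were lower on the Elongin A-/- array. Cyp26b1 had 261 and 108, a difference of -1.27 or 2.41-fold. Cyp26a1, the form most directly switched on by retinoic acid receptors, had 159 and 89.8, a difference of -0.83 or 1.78-fold, which stays short of the 2-fold size. The 2 differences were 0.44 apart on the log2 scale. The SD between probes applies to a single difference, so it does not gauge this gap. The remaining enzyme of the family, Cyp26c1, was not analysed here.

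The upstream DNA of Cyp26a1 carries a direct repeat of the receptor hexamer, shown here because the gene is a textbook receptor target and was lower. The hexamer searched was AGGTCA, its variant AGTTCA, or the forms GGGTCA as well as GGTTCA, on both strands, in windows from 250 bases before to 50 bases after each RefSeq gene start (build GRCm38.p6), and matches may overlap. Windows were found for 5 of the 6 genes. A pair of hexamers in the same orientation with 5 bases between them, the classic arrangement for a receptor pair of RAR and RXR, was found in the windows of Cyp26a1 and Rarb. It occurs in 32 of 32851 windows in the table (0.0974%). Capitals mark the hexamers in the following elements, printed 5′ to 3′ along the strand that reads them.
Cyp26a1: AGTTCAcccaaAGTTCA
Rarb: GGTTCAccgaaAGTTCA
The Cyp26a1 element lies on the reverse strand, 32 to 16 bases before the gene start, and the Rarb element on the gene's own strand, 53 to 37 bases before it. The whole Cyp26a1 window, chr19:37697558-37697857 on the plus strand, shows the pair in capitals as its reverse complement.
Cyp26a1 window: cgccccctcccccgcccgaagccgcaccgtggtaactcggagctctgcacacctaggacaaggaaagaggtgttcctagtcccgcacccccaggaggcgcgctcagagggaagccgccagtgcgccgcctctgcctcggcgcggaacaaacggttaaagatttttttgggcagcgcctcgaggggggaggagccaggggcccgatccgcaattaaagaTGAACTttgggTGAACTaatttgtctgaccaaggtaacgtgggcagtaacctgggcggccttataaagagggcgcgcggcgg
The window of Cyp26b1 held none of these hexamers, which says only that these letters are not in that window. Of the 31 genes with such a repeat, 5 were measured, Cyp26a1 and Rarb among them, with a median difference of 0.13. Of the 5, 0 were at least 2-fold apart, against 12.7% of all measured genes. So few genes cannot show whether genes with the repeat differ from others.

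Crabp2 went the other way. Its protein hands retinoic acid to RARs in the nucleus, and the gene is a receptor target itself. The intensity of Crabp2 was 324 on the Elongin A+/+ array and 678 on the Elongin A-/- array, a difference of 1.06 or 2.09-fold higher, just past the 2-fold size. Crabp1, the sister carrier that is linked more to holding and breaking down the acid, had 354 and 249, a difference of -0.51. The differences of the 2 carriers were 1.57 apart on the log2 scale. Fabp5, a fatty acid carrier that can also bind retinoic acid, had 12.4 and 10.3 (-0.26). Within the same arrays, the change of Crabp2 and that of Cyp26b1 were 2.34 apart, and that of Crabp2 and Stra8 3.44 apart, so these genes did not differ in equal measure on this pair of arrays.

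Rarb, the retinoic acid receptor gene whose own promoter holds the best known response element, differed little. It had 3.45 on the Elongin A+/+ array and 2.73 on the Elongin A-/- array, a difference of -0.34, which is under the SD between probes. Both values lie near the floor, at 3.36 and 2.66 times it. Its window, chr14:16575427-16575726 on the minus strand, is printed along the gene's strand with the repeat and 1 further hexamer in capitals.
Rarb window: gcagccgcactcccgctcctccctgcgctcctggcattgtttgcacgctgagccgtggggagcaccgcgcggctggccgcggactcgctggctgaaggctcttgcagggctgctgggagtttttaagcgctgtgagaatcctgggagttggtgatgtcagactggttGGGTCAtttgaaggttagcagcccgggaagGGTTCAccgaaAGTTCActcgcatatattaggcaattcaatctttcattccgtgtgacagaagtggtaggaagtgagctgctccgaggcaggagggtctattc
Among the other receptor genes, Rarg had 0.48 and 1.98, so that its difference of 0.94 is a bound, and Rxrb had 15.5 and 17.9 (0.22). Rxrg lay under the floor on each array, and Rara and Rxra were not analysed here. None of the 3 measured receptors was called at 2-fold, but the bound of Rarg does not show whether it was 2-fold apart. Of 10 measured coregulators, the proteins that receptors recruit, 9 were above the floor on both arrays and within 2-fold, 1 was a bound short of 2-fold, and the median was -0.18. The widest was Tbl1xr1, a subunit of the corepressor complex, with 4.57 and 2.29, which is just short of 2-fold. Next on that list came Pramel7, with 1.55 and a value below the floor (-0.60, a bound). Whether Pramel7 acts with these receptors is not shown here.

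Stra8, a gene that retinoic acid switches on in germ cells before meiosis and in ES cells, had the widest difference of the 6. Its intensity was 403 on the Elongin A+/+ array and 77.5 on the Elongin A-/- array, a difference of -2.38 or 5.20-fold lower, and both values are far above the floor. No repeat with 5, 2 or 1 bases between hexamers was found in its window. The window, chr6:34920698-34920997 on the plus strand, is shown because the gene differed most, and holds 2 single hexamers, 194 to 189 and 38 to 33 bases before the start. At least 1 such hexamer occurs in 43.7% of all windows, so its presence is common.
Stra8 window: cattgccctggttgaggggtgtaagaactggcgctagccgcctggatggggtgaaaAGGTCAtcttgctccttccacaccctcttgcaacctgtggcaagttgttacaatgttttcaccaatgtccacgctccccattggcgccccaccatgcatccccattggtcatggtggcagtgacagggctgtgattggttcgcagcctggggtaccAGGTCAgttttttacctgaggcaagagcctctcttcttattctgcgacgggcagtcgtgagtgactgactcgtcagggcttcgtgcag

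Other germ cell and meiosis genes showed no common direction with Stra8. Of 23 named on the array 15 were measured. Of these, 3 were at least 2-fold lower, against 5.97% of all measured genes, and 1 was higher, against 6.76%. By any margin 10 were higher and 5 lower, and the median was 0.43. Rec8, a meiotic cohesin that also responds to retinoic acid, had 45.5 and 44.0 (-0.05), and Syce2, a synaptonemal complex gene, had 39.4 and 53.1. Dazl, a germ cell RNA-binding protein, was lower (3.94 and 1.48), as were Stag3, another cohesin (7.87 and 3.02), and Dnd1 (3.41 and below the floor). Tdrd1, a germ granule gene, was higher (1.06 and 6.47). Ddx4, a defining germ cell gene, was below the floor on both arrays. The summed intensity of the 15 measured genes, without the floor, was 122 on the Elongin A+/+ array and 138 on the Elongin A-/- array. Syce2 was picked after its value was seen.

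The list of retinoic acid targets outside the Hox clusters had a median difference of 0.04 over 23 measured genes. It held 4 of the 6 genes: Stra8, Rarb, Cyp26a1 and Crabp2. Cyp26b1 (-1.27) was not put in this list, though CYP26 enzymes are among the targets, so the counts leave it out. Apart from those 4, 19 were measured, with 1 at least 2-fold lower and 2 higher. Neurog2, a neurogenic factor, was the lower one (8.07 and 2.42). Sox9 was higher (2.03 and 6.01), and Bhlhe40, first named as a gene induced by retinoic acid, was at least 2.52-fold higher. Many bright targets hardly differed: Meis2, a partner of HOX proteins, had 261 and 259, Meis1 had 114 and 129, and the nuclear receptor Nr2f2 had 75.8 and 78.3 (chosen after their values were seen). Of the 12 measured Hox genes of groups 1 to 5, the ones nearest to retinoic acid control, 1 was at least 2-fold lower, Hoxd1 (11.8 and 2.38), and the median was 0.09.

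Over the pathway lists together, 69 genes other than the 6 were measured of 86 named on the array. Of these 4 were at least 2-fold lower, 4 were at least 2-fold higher and 61 were not called, of which 49 lay within 2-fold above the floor on both arrays and 12 were bounds that do not show a size. The median was -0.00. That is 8 of 69 apart, against 12.7% of all measured genes. With the values as deposited the counts were 4 lower and 6 higher, and with no floor 6 lower and 7 higher. Over all measured genes, the 2-fold calls were 53.1% higher ones after quantile normalisation, 64.1% with the values as deposited and 48.2% with each array centred on its median above the floor, while the 6 genes gave 3 lower and 1 higher in each case.

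**Figure D3:**
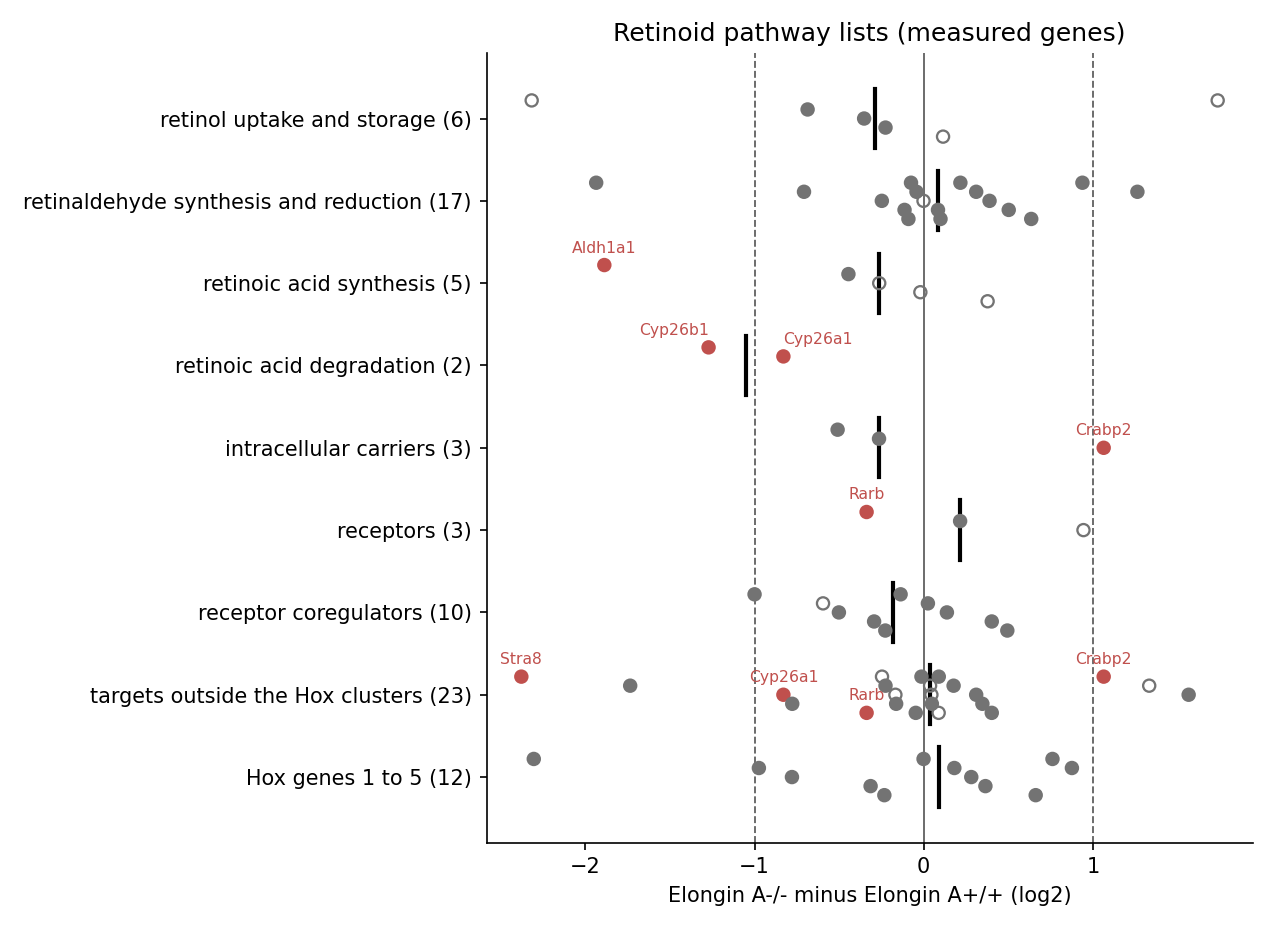
Difference between the arrays (log2) for the measured genes of each retinoid pathway list, number in brackets; filled points are above the floor on both arrays, open points are bounds, red points are the 6 named genes, black bars are list medians and dashed lines mark 2-fold. Most filled grey points lie within 2-fold, and Stra8, Aldh1a1 and Cyp26b1 lie left of it. Crabp2, Cyp26a1 and Rarb appear in 2 lists each because they are in the target list too.

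Markers of several cell types also differed between the arrays, and their summed intensities, over measured genes, use values as normalised without the floor. Over all measured genes, 5.97% were at least 2-fold lower and 6.76% at least 2-fold higher, the shares to set beside the counts below. Of 12 measured blood and endothelium markers 11 were at least 2-fold higher. The differences of 8 of the 12 were bounds, with 1 of the 2 values under the floor. The summed intensity of the 12 was 16.5 on the Elongin A+/+ array and 198 on the Elongin A-/- array. Cldn5 (1.56 and 60.2) and Kdr (2.23 and 54.4) were the widest. The 1 that was not higher was Klf1 (1.52 and below the floor). The defining genes Cdh5, Tie1 and Gata1 were below the floor on both arrays. Neuron markers were at least 2-fold lower in 6 of 17 measured cases and higher in none, with sums of 525 and 312. Of 17 neural progenitor markers 7 were lower and 1 was higher, with sums of 385 and 359. Olig3 (40.8 and 5.71) and Zic2 (5.64 and 1.06) were the widest, and Irx3 was the higher one (45.5 and 114). Primitive and visceral endoderm markers were at least 2-fold higher in 4 of 18 and lower in 1, with sums of 201 and 322. By any margin 15 were higher and 3 lower, with a median difference of 0.73. Sox7 (log2 difference 3.57) and Krt19 (2.15) were the widest, and Afp (-1.96, a bound) was the lower one. Gata4, Apoa1 and Amn were below the floor on both arrays. Pluripotency markers gave 2 higher and 2 lower of 11, with sums of 64.4 and 63.2. Klf5 (5.71 and 1.53) and Zfp42 (4.34 and 1.48) were lower. Dppa4 (4.03 and 9.65) and Sall4 (2.93 and 7.00) were higher. Pou5f1, which defines undifferentiated ES cells, had 1.70 and 0.93. The part of these cell types in the differences of the 6 genes was not tested.

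**Figure D4:**
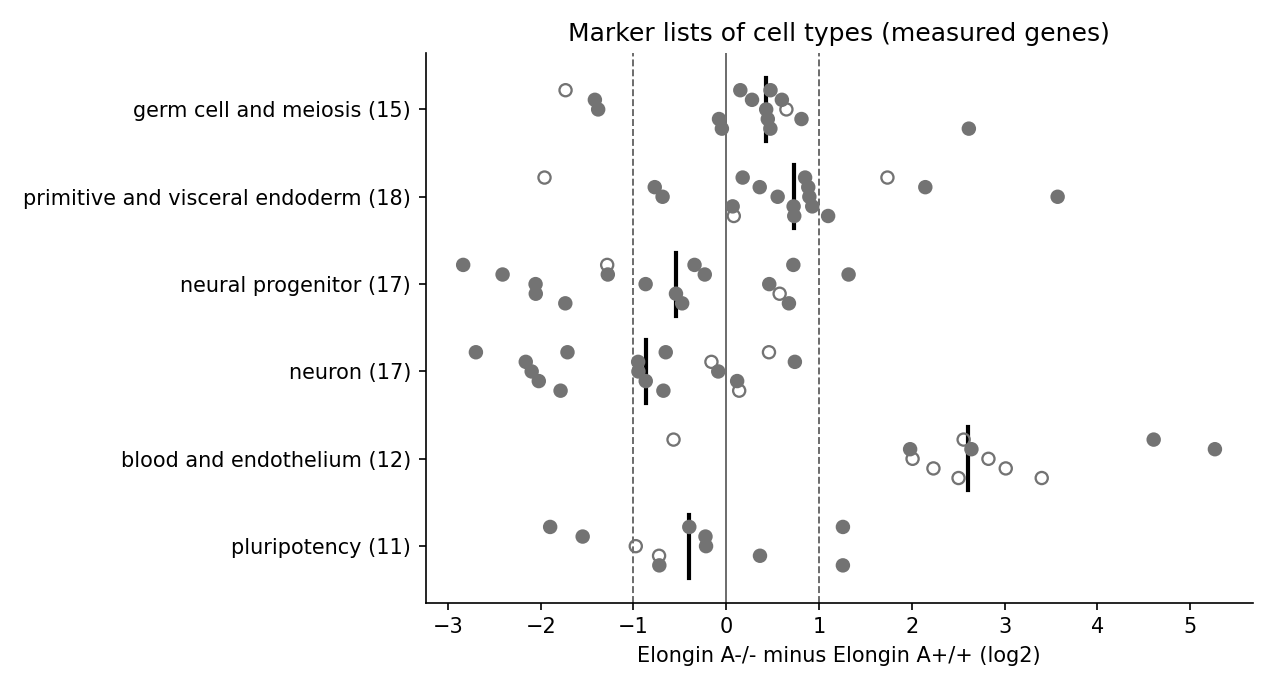
Difference between the arrays (log2) for the measured genes of 6 marker lists, number in brackets; filled points are above the floor on both arrays, open points are bounds, black bars are medians and dashed lines mark 2-fold. The medians run from -0.87 for neuron markers to 2.60 for blood and endothelium, and germ cell and meiosis genes, the company of Stra8, scatter around 0.43.

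Stra8 and Cyp26b1 both lie on chromosome 6. Its 518 measured genes had a median difference of -0.26 and were at least 2-fold lower in 11.2% of cases. With that median removed, Stra8 stood at -2.11 and Cyp26b1 at -1.01, so both kept to the lower side of 2-fold, the second narrowly. Cyp26a1 and Aldh1a1 lie on chromosome 19 (median -0.00), Crabp2 on chromosome 3 (-0.05) and Rarb on chromosome 14 (-0.06), where the same step moved them little. The part of the chromosome in these differences was not tested further.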

How the data were processed

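Total RNA (1 µg) of embryoid bodies was transcribed into digoxigenin-labelled cRNA for chemiluminescent reading on 2 arrays, per the labels' protocols. The authors deposited linear intensities, with medians of 1.02 and 1.03. No source used here states their scaling, background correction or filters. Arrays were assigned by title. Gene names came from the platform's annotation, where 14253 of 32440 probes have 1 gene symbol, 243 several and 17944 none. Percentiles of the arrays differed by up to 0.16 on the log2 scale, over the limit of 0.1, so log2 values were quantile normalised, which hides any shift common to most genes. The brightest probe stood for a gene with several. The code was tested on simulated data, with changes set only in genes of 1 probe that were brighter than Aldh1a1 and Rarb. Genes as dim as those were not covered. Python 3.11.15, numpy 2.4.6, pandas 2.3.3 and statsmodels 0.14.6 were used. Promoter windows are from RefSeq, GRCm38.p6, and chromosomes and gene order from the same assembly. The 6 genes, the lists and the 12 other settings were chosen with earlier results of these data known. Named were the 6 genes, their paralogues, and in each pathway list the genes at least 2-fold apart or otherwise the 2 widest. From each marker list up to 4 of the widest were named. Rec8, Sycp3, Dazl and Ddx4 were to be named beside Stra8, Sycp3 not being analysed here. Dhrs3, Stra6, Fabp5 and the defining markers were added after their values were seen. Genes were not ranked by likeness to the 6, since 2 arrays give 1 difference per gene.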

Additional observations from a re-analysis of the deposited data

How the results depend on the processing

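Over 10 other settings of scaling, floor, probes and chromosome, Stra8 ran from -2.44 to -2.11 and Cyp26b1 from -1.37 to -1.01. Cyp26a1 ran from -0.90 to -0.74 and Crabp2 from 1.02 to 1.17, and each of these genes kept to its side of 2-fold. Floors at other percentiles, no floor and the probe settings could not move these bright genes, which have 1 probe each. Only the scalings, the pseudocount and the chromosome step could. Rarb ran from -0.34 to -0.18 in 9 of the settings and had no value under a floor at the 75th percentile. Under that floor Aldh1a1 was -0.27, because its Elongin A+/+ value then lay barely above it, and -1.42 with a pseudocount at the floor. At 3-fold, 0 of the 6 genes were higher and 2 were lower. For the other pathway genes, the count at least 2-fold higher was 7 under a floor at the 25th percentile, 7 with no floor, 2 with the pseudocount and 0 under the 75th percentile floor, where 2 were lower. At 1.5-fold, 11 of them were lower and 10 higher, and at 3-fold 1 was higher. Of 170 list medians under these settings, 167 moved by less than the SD between probes. The others were blood and endothelium (1.06 under the 75th percentile floor and 3.44 with no floor, against 2.60) and pluripotency, which turned from -0.40 to 0.11 under the 75th percentile floor. Dim genes set these limits, since signals near the floor decide their differences. No paired analysis was possible because each genotype has 1 array.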

Other observations

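Gene order in GRCm38.p6 gives the nearest measured genes on the chromosome, 5 on either side of each of the 6 genes, a comparison chosen after the data were seen. Of all 9568 measured genes, 4937 were lower by any margin, 5.97% were at least 2-fold lower and 6.76% at least 2-fold higher. Counts over 10 neighbours are small beside these and only describe the genes. The 10 around Cyp26a1 had a median difference of -0.37, against -0.00 for chromosome 19. Of these 10, 7 were lower by any margin, none by 2-fold, with Rbp4, the serum carrier of retinol, the furthest at -0.69. Around Cyp26b1 the median was -0.27, near the -0.26 of all measured genes on chromosome 6, with 8 of 10 lower. The eye homeobox gene Vax2 was at least 2-fold lower (-1.89), while Zfp638 was 2-fold higher (1.02). Around Stra8, 2 of 10 were at least 2-fold lower, Cald1 (-1.08) and Ptn (-1.28), and 3 were higher, Akr1b8 (1.26), Creb3l2 (1.01) and Akr1d1 (1.13), on both sides of 0. The genes around Crabp2 had a median of 0.18 and none was 2-fold apart, and those around Aldh1a1 had a median of 0.19 with none 2-fold apart. Around Rarb the median was -0.00, with 1 higher by 2-fold.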
